A study of Macaca mulatta with 35 samples.

Results

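Oocytes of the rhesus monkey (Macaca mulatta) were compared across 3 sizes of antral follicle, the follicle stage with a fluid-filled cavity. They gave 12 of the 35 RNA sequencing libraries of the series, 4 each from small, medium and large follicles, and were chosen by the cell type and follicle size in their labels. The other libraries came from the somatic cells of such follicles, 11 from cumulus cells and 12 from granulosa cells. All ovaries came from adult females at necropsy, done for reasons unrelated to fertility. No treatment, strain or age is given in the labels. Nor do they give the follicle diameters, the number of oocytes per library, or which libraries share an animal or a follicle. The p-values therefore stand for variation from library to library, part of which may be technical. Libraries are named here by follicle size and by the number, 1 to 4, at the end of their title (small 1, medium 2).

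An oocyte in an antral follicle stays arrested in the first meiotic division while the follicle around it grows. During growth it builds up a store of maternal messenger RNA, and its own transcription declines towards the end of growth as the chromatin condenses. The stored messages are held back, activated or degraded later, so that level changes in a late oocyte can come from synthesis or from decay, which RNA sequencing of total RNA does not separate.

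Total estimated counts ran from 20780476 in large 4 to 52350387 in medium 2, with a median of 26297753 over the oocyte libraries. Every pair of libraries of a size differed by more than counting noise (chi-square per degree of freedom at least 63.3). Each file lists 49537 Ensembl transcript IDs without gene names, so transcripts are called here by ID or by length. The oocyte label could therefore not be checked against oocyte, granulosa, theca, immune or endothelial marker genes. All levels are shares of a library, either CPM (counts scaled to a common library size, with TMM factors) or TPM (scaled after division by transcript length). Fewer cells of a type and less RNA per cell cannot be told apart on these scales. A change in the total RNA of an oocyte is also not seen.

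The 4 most abundant RNAs of the oocyte by mean TPM kept their ranks by group mean at all 3 follicle sizes. Single libraries did not all keep this order. In medium follicles the second, 1568 bases long, ranked above the third, 1146 bases long, only through medium 2. In medium 1, 3 and 4 the second stood at 60565, 79497 and 85137 TPM, and the third at 123297, 143970 and 131466 TPM. The 10 transcripts with the highest mean TPM were between 207 and 1711 bases long, and none of them passed the test for a slope on follicle size (edgeR quasi-likelihood test, lowest unadjusted p = 0.303). The leading one, 836 bases long, had a mean of 176327 TPM in small, 169970 in medium and 156596 in large follicles, and single libraries ran from 129654 to 202612 TPM. The fourth, 1149 bases long, stood at 72304, 75967 and 68949 TPM in the same order. For both, the libraries of the 3 sizes overlapped.

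The second transcript by TPM, 1568 bases long, was the most abundant by counts and spanned a wide range within each size. It stood at 138343, 141469, 87455 and 98992 TPM in small 1 to 4. In medium 1 to 4 it stood at 60565, 388100, 79497 and 85137 TPM. In large 1 to 4 it stood at 76333, 9649, 207293 and 97511 TPM. Its highest and lowest libraries both carry the number 2, and the 3 sizes overlapped. It held 44.8% of all counts in medium 2 and 0.992% in large 2. The third, 1146 bases long, was lowest in the same 2 libraries, with 21908 TPM in medium 2 and 18431 in large 2, against 52799 to 145234 TPM elsewhere.

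Several of the short abundant transcripts split by title number instead of follicle size. The fifth, 297 bases long, stood at 263, 194 and 103 TPM in small 4, medium 4 and large 4. The other 9 libraries held 13882 to 57527 TPM. The seventh, 207 bases long, had the opposite split: 31810 to 37744 TPM in the libraries numbered 4 and 1713 to 6103 TPM in the others. In neither case did the libraries numbered 4 overlap with the rest. A wide spread of the 297-base transcript within a group was also present in the somatic cells, where the lowest library of each cumulus or granulosa group stood at 60.2 to 383 TPM and the highest at 32231 to 75834 TPM. The sixth, eighth and ninth transcripts, 684, 784 and 681 bases long, were also lower in the libraries numbered 4 than in all others (8562 to 9812, 3808 to 5010 and 4456 to 5537 TPM, against at least 11030, 7704 and 7356 TPM). In an F test over the 4 title numbers, added after the data were seen, all 5 of these short transcripts were called, where 0.282% of all transcripts tested were (edgeR adjusted p = 0.000407 for the 207-base, 0.00278 for the 297-base, 0.00978 for the 681-base, 0.0123 for the 784-base and 0.0321 for the 684-base one). These 5 were picked for their split by number in the same libraries, so their calls describe that split and do not test it independently. What the title number stands for is not in the labels.

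**Figure D1:**
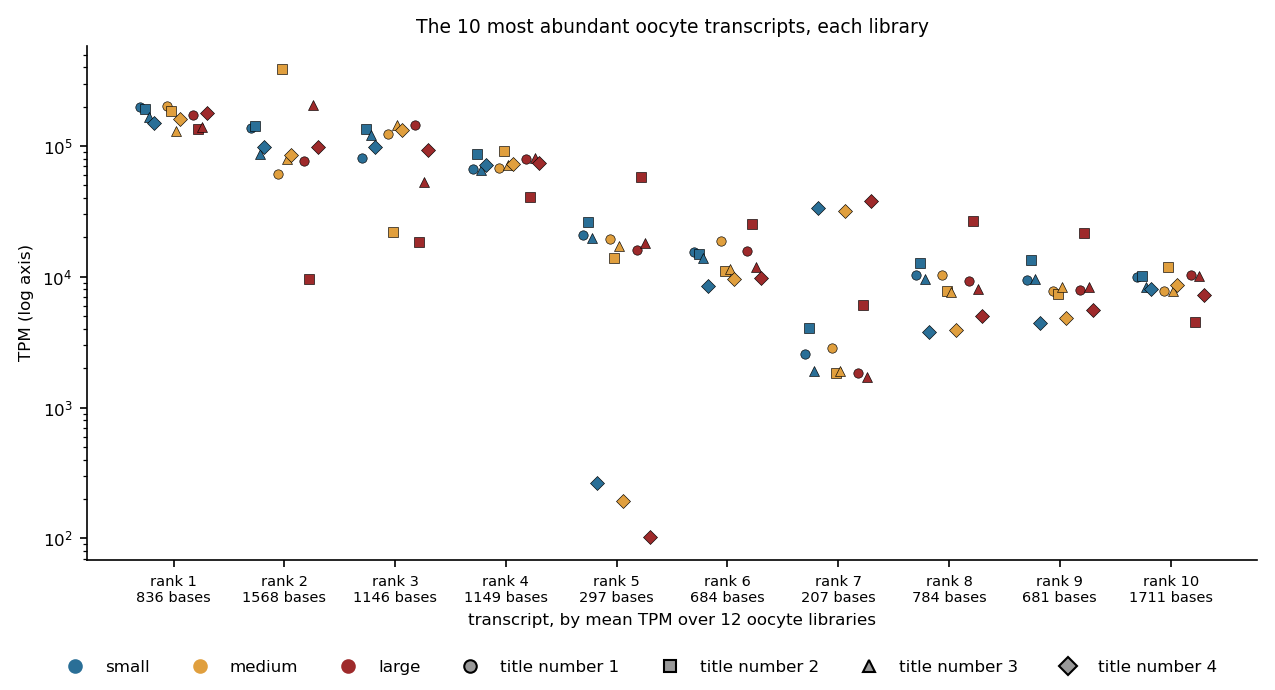
TPM on a log axis of the 10 transcripts with the highest mean TPM in oocytes, 1 point per library, coloured by follicle size and shaped by title number. Sizes overlap for every transcript, while the libraries numbered 4 stand far below the others at rank 5 (103 to 263 TPM) and above them at rank 7 (31810 to 37744 TPM).

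An ordered change with follicle growth was tested as a slope of log2 level on the size code (1 small, 2 medium, 3 large). Of 28769 transcripts past the filter on low counts, 0 passed at an adjusted p under 0.05 (edgeR quasi-likelihood test, 0% called, lowest adjusted p = 1). At an unadjusted p under 0.05 there were 298 higher with size (1.04%) and 164 lower (0.57%). Together these 462 are 1.61% of the transcripts, against 5% if p-values were spread evenly. With the title number as a block, edgeR called 0 and 607 had an unadjusted p under 0.05. Without medium 2 these counts were 0 and 583 of 30183 tested, and with both changes 0 and 802. By limma with sample weights they were 0 and 881. DESeq2 called 3 transcripts, 2 higher and 1 lower (0.0104%), and 870 had an unadjusted p under 0.05.

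The 3 transcripts that DESeq2 called were singled out after their values were seen. The one lower with size, 6825 bases long, stood at 3.58, 4.58, 3.25 and 2.53 CPM in small 1 to 4, at 1.57, 0.87, 1.43 and 1.60 CPM in medium 1 to 4, and at 1.19, 0.69, 1.17 and 1.07 CPM in large 1 to 4. Every small library lay above all medium and large ones, which overlapped with each other. Its slope was -0.88 log2 units per step (DESeq2 adjusted p = 0.0485, edgeR unadjusted p = 0.00143). Of those higher with size, the 10474-base transcript stood at 0.81 to 3.12 CPM in small and at 105, 329, 1.92 and 4.35 CPM in large 1 to 4, so that 2 large libraries were high and large 3 lay inside the small range (DESeq2 slope 2.82, adjusted p = 0.00462). The 3789-base transcript was near 0 in small libraries, at 6.15, 0, 4.96 and 4.16 CPM in medium 1 to 4 and at 12.9, 29.0, 4.77 and 0.12 CPM in large 1 to 4 (DESeq2 slope 4.41, adjusted p = 0.0161). Both overlapped between sizes.

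The precision of the slopes depended on abundance. The standard error of the slope had a median of 0.32 log2 units per size step, with 0.12 for the 1090 transcripts over 100 CPM and 0.64 for the 6171 under 1 CPM. In the group over 100 CPM, 95% of slopes were within 0.26 log2 units per step of 0. Under 1 CPM the same bound was 1.38. The median slope over all transcripts tested was -0.01. Changes of a size near these standard errors were not detectable with 4 libraries per size, and much larger ones could also fail. A slope of 4.59 (SE 0.89), that of ENSMMUT00000081175.1, did not pass adjustment.

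**Figure D2:**
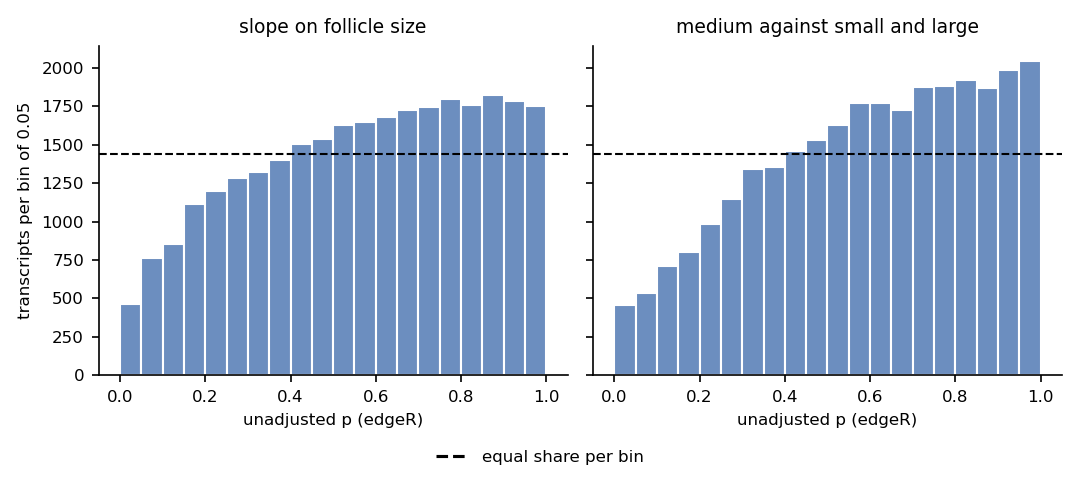
Number of transcripts per bin of unadjusted p (width 0.05) for the slope on follicle size and for medium against the mean of small and large, in the edgeR fit of the 12 oocyte libraries; the dashed line is an equal share per bin. The lowest bin holds 462 and 460 transcripts, fewer than any other bin of its plot.

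Among transcripts higher in larger follicles, the lowest p belonged to a pair with different shapes, neither of which passed adjustment. ENSMMUT00000081175.1, 3594 bases long, was at 0 in all 4 small libraries and in medium 1 to 3. It stood at 0.52 CPM in medium 4 and at 0.85, 8.48, 1.5 and 1.03 CPM in large 1 to 4. No large library overlapped with a smaller size, and the mean in large follicles was at least 119-fold over the floor of 3 counts in the small group (0.025 CPM). Without large 2, the highest, this bound was 45.1-fold. Its fitted slope was 4.59 log2 units per step (SE 0.89, unadjusted p = 0.000208). The slope exceeded the mean slope of cumulus and granulosa cells by 6.18 (SE 1.22, edgeR adjusted p = 0.063). In cumulus cells it was present at every size, and in granulosa cells all 4 large libraries were at 0.

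ENSMMUT00000098303.1, 1666 bases long, was present at every size. Small 1 to 4 held 4.41, 8.26, 7.54 and 4.69 CPM, and medium 1 to 4 held 8.46, 16.4, 9.99 and 9.44 CPM. Large 1 to 4 held 8.81, 32.5, 18.1 and 23.8 CPM. Every medium library was above every small one, while large 1 fell inside the medium range. The group means were 6.23 ± 1.96, 11.1 ± 3.60 and 20.8 ± 9.94 CPM (SD, n = 4 each). Its slope was 0.87 log2 units per step (SE 0.19, edgeR unadjusted p = 0.000618). Every small library lay below every large one, so large exceeded small under each title number whatever the pairing. The slope was 0.08 (SE 0.66) in cumulus and -0.08 (SE 0.71) in granulosa cells, and its difference from their mean did not pass (edgeR adjusted p = 1).

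Of the transcripts lower in larger follicles, both with the lowest p were low in abundance and absent from large follicles. ENSMMUT00000075688.2, 15592 bases long, stood at 5.87, 1.16, 0.88 and 0.84 CPM in small 1 to 4 and at 0.35 CPM in medium 4. The other 7 libraries were at 0 after rounding of the estimated counts. Small follicles did not overlap with the other sizes, and small 1 held most of the counts. The slope was -4.52 log2 units per step (SE 0.83, unadjusted p = 0.00013). ENSMMUT00000022395.4, 2668 bases long, stood at 2.61, 0.66, 0.80 and 0.34 CPM in small 1 to 4, at 0.37 and 0.38 CPM in medium 1 and 4, and at 0 in the other 6 libraries. Small 4 overlapped with medium. Its slope was -3.46 (SE 0.83, unadjusted p = 0.00122). Against the floor of 3 counts in the large group, the small means were at least 78.8-fold and 39.7-fold higher. Without small 1, the highest in both, these bounds were 34.6-fold and 21.7-fold. None of these 4 transcripts had whole-number estimated counts throughout, as kallisto gives where a read fits several transcripts, and a 0 can reflect that division.

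Only 1 transcript had every small library below every medium and every medium below every large library (0.00348% of those tested). It is 2275 bases long, with 1.17 ± 0.41 CPM in small, 1.90 ± 0.28 in medium and 3.25 ± 1.39 in large follicles (SD, n = 4 each). Large 2, at 5.31 CPM, was the highest, and the other large libraries lay between 2.31 and 2.75 CPM. Its slope of 0.74 log2 units per step (SE 0.23) had an unadjusted p of 0.00668 and did not pass adjustment. No transcript had the reverse order in every library (0%).

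**Figure D3:**
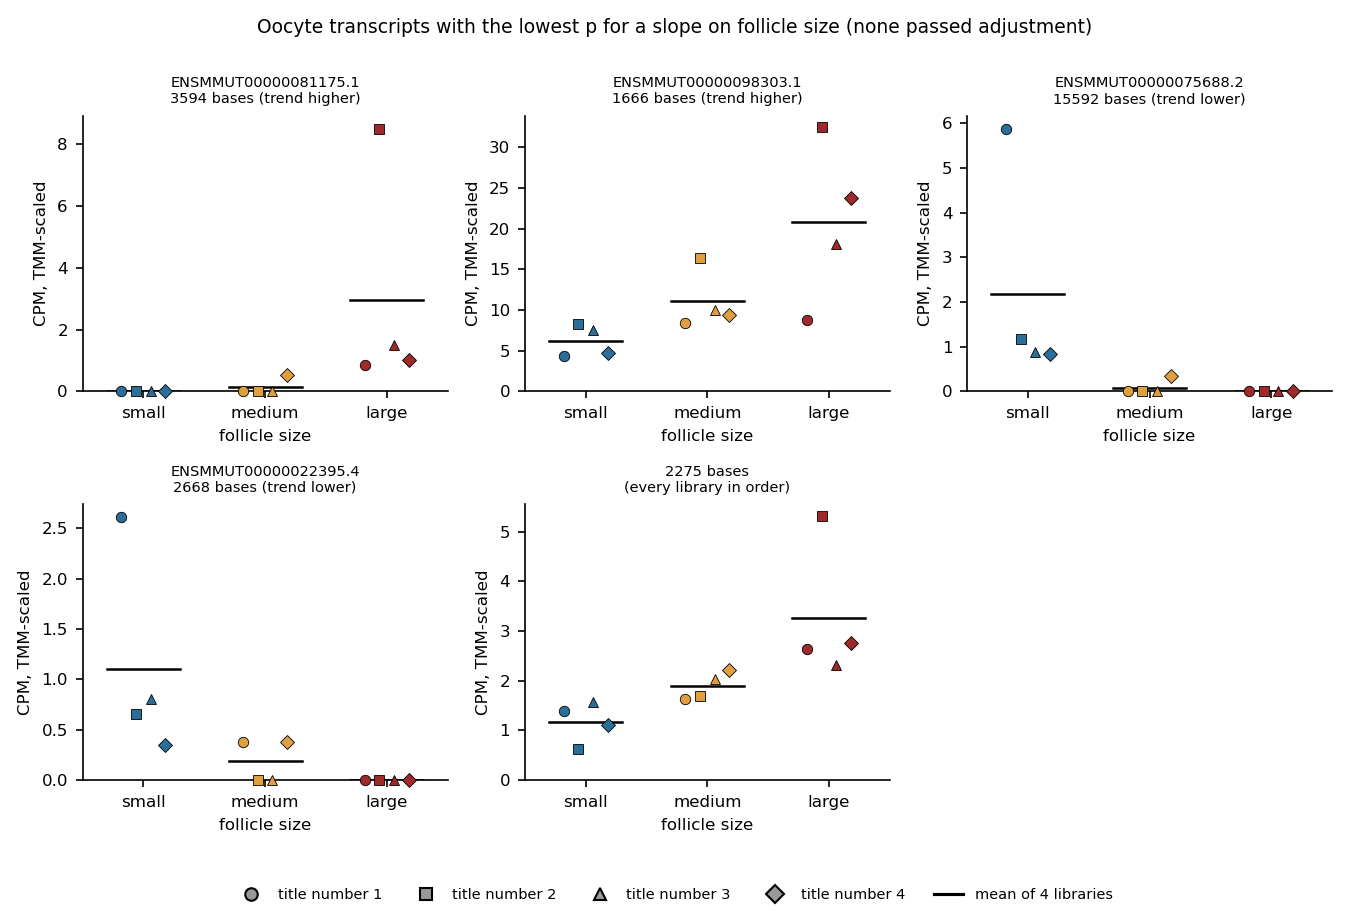
TMM-scaled CPM per library against follicle size for the transcripts with the lowest p for a slope in each direction and for the 2275-base transcript with every library in order; symbols give the title number and bars the mean of 4 libraries. The lower transcripts and ENSMMUT00000081175.1 go to 0 in a whole size group, while ENSMMUT00000098303.1 goes from 6.23 to 20.8 CPM with overlap between medium and large.

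A pattern centred on medium follicles was tested as medium against the mean of small and large. Again 0 of 28769 transcripts passed (edgeR quasi-likelihood test, 0% called, lowest adjusted p = 1), with 207 higher in medium (0.72%) and 253 lower (0.879%) at an unadjusted p under 0.05. With the block edgeR called 0 (553 at an unadjusted p under 0.05), without medium 2 it called 0 (646), and limma called 0 (697). DESeq2 called 39, of which 16 were higher and 23 lower in medium follicles (0.136%), with 679 at an unadjusted p under 0.05. Most of the 39 had several oocyte libraries at 0, up to 8 of the 12, with fitted contrasts as far as -23.3 log2 units. The medium-low transcripts named below had no library at 0. By the order of group means alone, medium was highest in 34% and lowest in 31.2% of transcripts. Upwards with size were 15.3% and downwards 19.5%. Medium highest and medium lowest each pool both orders of small and large, whereas upwards and downwards are a single order each. The shares are therefore not comparable, and none was tested.

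The medium-high transcripts with the lowest p were each shared with 1 other size. ENSMMUT00000074243.2, 2831 bases long, was at 0 in all small libraries. It stood at 3.91, 1.37, 1.54 and 2.81 CPM in medium 1 to 4 and at 2.44, 1.46, 0.69 and 3.0 CPM in large 1 to 4. Medium and large overlapped, and both stood above small. The contrast was 4.72 log2 units (SE 0.64, unadjusted p = 5.25e-05, 1 after adjustment in edgeR), and DESeq2 called it (adjusted p = 5.47e-05). ENSMMUT00000060081.2, 1840 bases long, was the mirror case, at 0 in all large libraries, with 0.87 ± 0.39 CPM in small and 0.72 ± 0.35 CPM in medium follicles (SD, n = 4 each). Its contrast was 3.55 log2 units (SE 0.65, unadjusted p = 0.000444). Neither was highest in medium follicles beyond the spread of the libraries.

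The medium-low transcripts named here were present at every size. ENSMMUT00000055968.2, 1792 bases long, stood at 98.2, 65.0, 52.3 and 53.1 CPM in small 1 to 4 and at 31.1, 21.2, 25.9 and 25.6 CPM in medium 1 to 4. Large 1 to 4 held 85.9, 51.8, 155 and 51.8 CPM. Every medium library lay below all small and large ones. The contrast was -1.55 log2 units (SE 0.33, unadjusted p = 0.000537). It passed in DESeq2 (adjusted p = 0.00184) and not in edgeR (adjusted p = 1). ENSMMUT00000097106.1, 14411 bases long, stood at 1.97 ± 0.39 CPM in medium follicles, against 15.3 ± 14.8 in small and 25.2 ± 14.1 in large follicles (SD, n = 4 each). Small 4, at 0.84 CPM, was below every medium library, so the groups overlapped. Its contrast of -3.31 (SE 0.81) had an unadjusted p of 0.00173 and passed in DESeq2 (adjusted p = 0.00184).

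**Figure D4:**
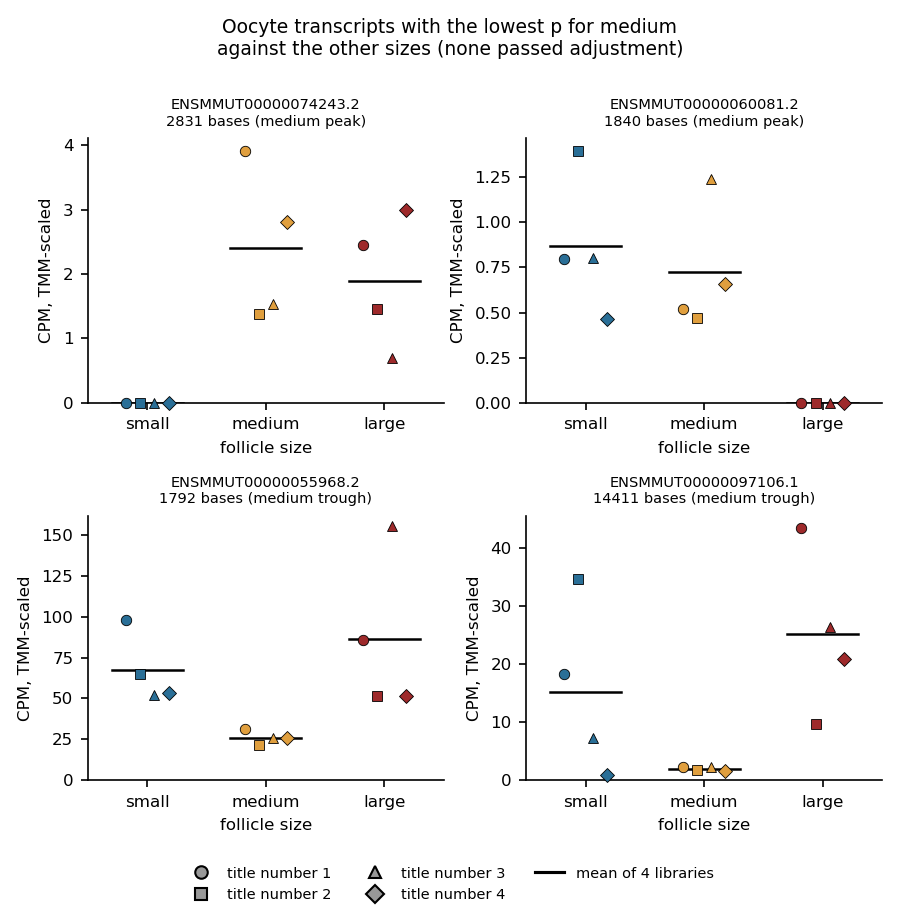
TMM-scaled CPM per library against follicle size for the transcripts with the lowest p for medium above (upper panels) and below (lower panels) the other sizes; symbols give the title number and bars the mean of 4 libraries. The upper transcripts are at 0 in 1 size and overlap in the other 2, and the 1792-base transcript has all 4 medium libraries between 21.2 and 31.1 CPM, below the other 8.

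Counted by single libraries, 27 transcripts had every medium library above all small and large ones (0.0939%) and 24 had every medium library below them (0.0834%). Without medium 2, which leaves 3 medium libraries to separate, these counts were 97 and 107 of 30183 tested. Every large library was above all others for 21 transcripts (0.073%) and below all others for 42 (0.146%). Every small library was above all others for 14 and below all others for 14 (0.0487% each). The medium-high ones had a median level of 1.85 CPM and reached 28.2 CPM, and the medium-low ones had a median of 1.88 CPM and reached 59.8 CPM. The median of each of these 6 sets lay under the median level of all transcripts tested, 3.80 CPM.

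The sets with an unadjusted p under 0.05 differed from each other in level and in how often a size group was at 0. A whole size group was at 0 in 1.04% of all transcripts tested. The share was 9.4% among the 298 higher with size, 19.5% among the 164 lower, 40.6% among the 207 higher in medium and 42.3% among the 253 lower in medium. Their median levels were 4.07, 2.29, 1.40 and 1.38 CPM in that order, against 3.80 CPM for all tested. Their lengths were like those of all tested, with medians of 2626, 2639, 2856 and 2871 bases against 2546. Estimated counts were whole numbers in every oocyte library for 10% of all transcripts tested, for 9.4% and 7.93% of those higher and lower with size, and for 3.38% and 2.77% of those higher and lower in medium. These sets were picked by p from the same libraries, so these shares describe them and test nothing.

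Presence and absence gave small numbers in both directions. At a minimum of 10 estimated counts, 15735 transcripts were present in all 12 oocyte libraries, and 7161 of the 49537 had 0 counts in every one. Of the 49537 transcripts, 8 were present in all 4 small libraries and at 0 in all large ones, and 4 had the reverse. For medium against small these counts were 4 (medium present) and 5 (small present), and for medium against large 10 (medium present) and 3 (large present). No transcript was present in all 4 medium libraries and at 0 in all others. The number present in all 4 libraries of a size was 20185 in small, 19641 in medium and 17940 in large follicles. This number is limited by the poorest library of a size. Large 2 had 22229 transcripts with at least 10 counts, and every other library at least 24949. Without large 2 the slope of that number per library was 34.95 per size step, against -475 with all 12 libraries.

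Transcripts predominant in oocytes are the nearest to an oocyte programme that unnamed IDs allow. They were the 1159 transcripts with a mean of at least 5 CPM in oocytes and at least 20 times the mean of both somatic cell types. Of the 1158 that were tested, 0 passed in edgeR, 6 were higher and 1 lower with size at an unadjusted p under 0.05 (0.604%, against 1.61% of all tested). Their median slope was 0.01 log2 units per step, against -0.01 for all. They held 11.1% ± 2.24 of counts in small, 10.8% ± 3.76 in medium and 12% ± 1.58 in large follicles (SD, n = 4 each), with the lowest share, 5.17%, in medium 2. Transcripts predominant in both somatic types, 146 by the reverse rule, held 0.0056% to 0.0355% of oocyte counts, and their share gave no slope past the test (two-sided exact permutation test, p = 0.942). Both sets were chosen on these libraries, so their levels do not check the label independently.

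No whole-library measure passed a test for an ordered change. Over 8 measures, the lowest p was 0.408, for the number of transcripts with at least 10 counts (two-sided exact permutation test over all assignments of libraries to sizes, adjusted p = 0.942 for every measure). That number was 26420 ± 903 in small, 25909 ± 935 in medium and 25470 ± 2318 in large follicles (SD, n = 4 each). The share of counts in transcripts over 4000 bases was 19.1% ± 2.64, 17.8% ± 5.78 and 21.3% ± 3.58, and the share under 1000 bases was 14.1% ± 1.70, 13.5% ± 1.97 and 14.0% ± 1.49 (SD, n = 4 each). The 10 most abundant transcripts held 38.7% ± 7.97, 42.4% ± 17.3 and 33.4% ± 9.36 of counts, with 68.3% in medium 2 and 20.6% in large 2.

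Over the whole profile, a slope on follicle size accounted for 8.23% of the variation between oocyte libraries, and assignments of sizes at random gave a mean of 9.09% (exact permutation test, p = 0.757; p = 0.559 with sizes permuted within title number). The title number accounted for 34.7%, against a mean of 28.1% over the 576 ways of permuting numbers within size that differ in outcome (exact permutation test, p = 0.00174, the smallest these permutations can give). The F test over the 4 numbers called 81 of 28769 transcripts (edgeR quasi-likelihood test with 3 size means, 0.282%). Library pairs of the same number had a median Spearman correlation of 0.856, pairs of the same size 0.836 and pairs sharing neither 0.831, over transcripts, which are not independent replicates.

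Large 2 stood apart from the other oocyte libraries. Its median correlation with the others was 0.730, where every other library had 0.825 to 0.851. It held 200 transcripts at least 4-fold above and 1543 at least 4-fold below all other oocyte libraries, where the others had at most 22 and 180. It had the fewest transcripts with at least 10 counts, 22229. The median SD of log2 CPM was 0.86 within large follicles and 0.55 without large 2. It was 0.65 within small follicles and 0.54 without small 2, and 0.68 within medium follicles and 0.57 without medium 2. Without large 2 the slope on size called 1 transcript, 2731 bases long and lower with size (edgeR adjusted p = 0.00146). It held 2.33 to 9.52 CPM in the small libraries, at most 0.0376 CPM in medium ones and 0 in large 1, 3 and 4, but 33.7 CPM in large 2, the highest of all 12. This transcript was singled out after its values were seen.

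**Figure D5:**
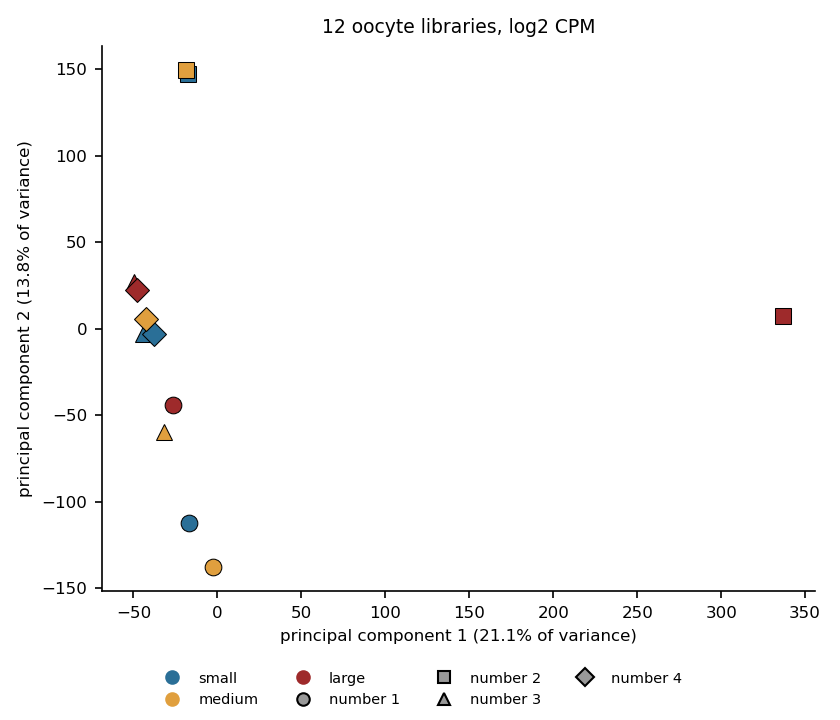
First and second principal components of log2 CPM over the 12 oocyte libraries, coloured by follicle size and shaped by title number; axes give the share of variance, 21.1% and 13.8%. Large 2 lies alone at the right, small 2 and medium 2 lie together at the top, and the 3 sizes do not form groups.

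The oocyte slope was also set against the mean slope of cumulus and granulosa cells, which asks whether a change with follicle size is different in the germ cell. Of 37702 transcripts tested over all 35 libraries, 3 had a higher (0.00796%) and 4 a lower slope in oocytes (0.0106%), at an adjusted p under 0.05 in edgeR. None of the 4 named below passed the count filter of the oocyte fit, and they were tested here because somatic libraries entered the filter. Counts of all 7 were few in oocytes, from 28 to 278 over the 12 libraries, and 6 of them were at 0 in at least 9 libraries. The highest oocyte library of any held 4.44 CPM. ENSMMUT00000102406.1, 3593 bases long, had 1 count in small, 4 in medium and 124 in large oocyte libraries, with 105 counts in large 3. Its slope was 4.10 log2 units per step above that of the somatic cells (SE 0.63, edgeR adjusted p = 0.0107). ENSMMUT00000047776.3, 891 bases long, had 28 counts in 2 large oocyte libraries, with 21 counts in large 3, and 0 in the other 10 (difference 3.82, SE 0.65, edgeR adjusted p = 0.0281).

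Of those with a lower oocyte slope, ENSMMUT00000015746.4, 8700 bases long, had 220 counts in small 1 and small 3 and 0 in the other 10 oocyte libraries. Its slope was 5.73 log2 units per step in cumulus cells (SE 0.75), which did not pass in the fit of cumulus libraries alone (edgeR adjusted p = 0.22), and -0.08 (SE 0.73) in granulosa cells. The difference from the oocyte slope was -9.31 (SE 1.45, edgeR adjusted p = 0.0193). ENSMMUT00000026523.4, 4685 bases long, had 60 counts in small 1 to 3 and 0 in the other 9 (difference -4.70, SE 0.76, edgeR adjusted p = 0.0221). Neither of these lower slopes was called with the title number as a block (edgeR adjusted p = 0.138 and 0.0757). Leaving out large 3 ended the call of both transcripts with a higher slope (edgeR adjusted p = 0.070 for the 3593-base and 0.0888 for the 891-base one). Leaving out small 1, medium 1 or medium 3 ended that of the 891-base transcript (adjusted p = 0.0501, 0.0552 and 0.0541). The number of transcripts called ran from 3 without medium 1 or medium 3 to 21 without small 4. It was 478 with DESeq2 and 1 with limma, each of 37702 tested.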

How the data were processed

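RNA of 12 oocyte libraries, and of 23 somatic libraries used for the comparison of slopes, was prepared with the PicoPure kit and then the Ovation RNA-Seq System v2, an amplification, according to the labels' protocols. Amplified copies are not separate molecules, and floors cover only counting error. The submitters' processing notes name bcl2fastq 2.19.1 and kallisto 0.44.0. Build and annotation: not given in the sources used here. The deposited estimated counts per transcript, per the file headers, were rounded to whole numbers and used in all tests. The deposited TPM, made by the authors per the file headers, served for levels of abundant transcripts only. None of the 49537 transcript IDs could be joined to a gene name or RefSeq entry (0 and 0 matches), so the gene and marker lists that were planned could not be used, and no sequence is printed.

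Oocyte libraries were fitted alone with edgeR 4.0.16 in R 4.3.3 (quasi-likelihood test, robust, TMM, filter on low counts by size with a minimum of 10, Benjamini-Hochberg adjustment, called under 0.05). The oocyte slope was compared with the mean of the somatic slopes in 1 fit of all 35 libraries. Standard errors (SE) were derived as the absolute slope or contrast over the square root of the F statistic, so they are approximate. Alternatives included DESeq2 1.42.0, limma 3.58.1, a block on the title number and leaving out each library. Library measures and the whole profile (log2 CPM, prior count 2) were tested by exact permutation. Scripts were tested on simulated data. Named by ID were the 2 transcripts per direction with the smallest p and a mean of at least 10 counts in the highest size, and the most abundant 10 by TPM were described by rank and length. For the comparison with somatic cells only called transcripts were named, at most 2 per direction. Members, lists and tests were chosen with earlier results of these data known.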

Additional observations from a re-analysis of the deposited data

Results flagged for a closer look

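Of 73 groups of 4 libraries examined, 14 held a library whose gap to the nearest other was past the critical value of Dixon's test for outliers. Chance flags about 1 in 20 independent groups. The groups here share libraries and counts, and some transcripts were named for their low p, so an excess over chance was not tested. Medium 2 accounted for 8 of the 14 flags. Its total was 52350387 estimated counts, against 24639485 to 26405465 in the other medium libraries. The 1568-base transcript held 44.8% of its counts, and the 10 most abundant held 68.3%, against 32.9% to 35.3% in the other medium libraries. On the TMM-scaled CPM scale, with a factor of 0.53 for this library, the 1568-base transcript stood at 847513 CPM (others 63481 to 75358), the 1149-base one at 139646 CPM and the 1711-base one at 28783 CPM. Transcripts over 4000 bases held 9.22% of its counts (others 19.7% to 21.4%), and oocyte-predominant transcripts held 5.17% (others 11.8% to 13.2%).

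Large 2 stood far above the other large libraries for ENSMMUT00000081175.1, at 8.48 CPM, and for the 2275-base transcript with every library in order, at 5.31 CPM. Small 1 stood at 5.87 CPM for ENSMMUT00000075688.2, where the other small libraries held 0.84 to 1.16 CPM. The 207-base transcript stood at 415 CPM in small 4, 392 CPM in medium 4 and 472 CPM in large 4, where the other libraries of each size held at most 82.3 CPM.

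Between cell types, 4 named transcripts had a slope on follicle size in oocytes that differed from the mean somatic slope (edgeR quasi-likelihood interaction test). The differences were 4.10 log2 units per step for ENSMMUT00000102406.1, 3.82 for ENSMMUT00000047776.3, -9.31 for ENSMMUT00000015746.4 and -4.70 for ENSMMUT00000026523.4. The oocyte counts behind them were 129, 28, 220 and 60 over all 12 libraries, too few to pass the filter of the oocyte fit. The higher slopes were not called without large 3 (edgeR adjusted p = 0.070 and 0.0888), and the lower ones were not called with the title number as a block (0.138 and 0.0757).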

How the results depend on the processing

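The slope on follicle size had 0 calls in edgeR, and it kept 0 under RLE factors, no filter, a minimum count of 50, whole counts only, large minus small, limma, and removal of the 1568-base transcript. It had 3 calls in DESeq2 and 1 when all 35 libraries were fitted together (ENSMMUT00000060081.2, lower). Leaving out single libraries gave 0 to 1: 1 without small 2 (a 3554-base transcript, lower) and 1 without large 2. The medium contrast had 0 calls, with 39 in DESeq2, 2 in the fit of 35 libraries and 0 without any 1 library. The 7 calls against the somatic slope, of 37702 tested, became 478 in DESeq2 and 1 in limma. Without single oocyte libraries they became 3 to 21. They numbered 4 without small 1, 11 without small 3 and 14 without medium 2. They numbered 16 without large 1 and 18 without large 2 or large 4. Unadjusted p under 0.05 for the slope numbered 2952 of 42376 without a filter. Without medium 2, complete separation gave 1 falling, 97 medium-high and 107 medium-low transcripts of 30183 tested, since 3 medium libraries then had to separate. At a minimum count of 50, with 19966 tested, medium-high was 15 and medium-low 13. The cause of the other changes was not tested.

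The labels give no pairing, so the title number entered as a block in alternative fits only. Of 12 same-number pairs of libraries, 9 had a correlation of deviations from the size means over 0.1 (range 0.0284 to 0.263). Other pairs ran from -0.145 to 0.0562, so the ranges overlapped. Within each other size, 10 of 12 libraries correlated best with their own number. With the replicate block the slope and the medium contrast kept 0 calls (607 and 553 at an unadjusted p under 0.05). The comparison with somatic slopes had 10 calls in place of 7, of 37702 tested. ENSMMUT00000015746.4 and ENSMMUT00000026523.4 were not among the 10 (edgeR adjusted p = 0.138 and 0.0757). With the block, the uncalled slopes of the 297-base and 207-base transcripts became -0.0916 and -0.00465, and with the block and without medium 2 they became -0.105 and -0.0072. In that last fit the uncalled medium contrast of the 1568-base transcript was -0.719.

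No slope of the 10 most abundant transcripts was called, and several changed sign. In limma the slopes were 0.0681 (1149 bases), -0.573 (297), -0.0312 (784), -0.062 (681) and 0.00942 (1711). Leaving out single libraries gave slopes of -0.391 to 0.113 (1568 bases), -0.151 to 0.0442 (1149), -0.304 to 0.383 (297), -0.0609 to 0.174 (684), -0.76 to 0.822 (207), -0.189 to 0.324 (784), -0.222 to 0.249 (681) and -0.21 to 0.00621 (1711), and medium contrasts of -0.64 to 1.66 for the 1568-base transcript. Slopes of library measures, none past the test, ran from -833.9 to 34.95 transcripts with at least 10 counts, from -2.61 to 0.636 percentage points for the most abundant transcript, from -0.398 to 0.216 for transcripts under 1000 bases, from -0.00274 to 0.00123 for somatic-predominant and from -0.0284 to 0.775 for oocyte-predominant transcripts. The share of variation on size ran from 8.52% to 10.1%. The median standard error of the slope was 0.64 for transcripts under 1 CPM and 0.12 over 100 CPM, and depth itself was not varied.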

Other observations

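Oocyte libraries that share a title number shared large differences in single transcripts. In the F test over the 4 numbers, added after the data were seen, 81 of 28769 transcripts were called (edgeR quasi-likelihood test, 0.282%). An unadjusted p under 0.05 was reached by 3616 (12.6%). For the slope on size this share was 1.61%, and 2.11% with the title number as a block. The slope is a test of 1 coefficient, so these shares are not like for like. For 75 of the 81, the 3 libraries of at least 1 number lay above or below all other 9, and a transcript could count under several numbers. Number 4 was above the others for 20 and below for 16, number 2 for 19 and 13, number 1 for 16 and 8, and number 3 for 4 and 11. The 81 were chosen by a test on the same grouping. Separation by number was not counted over all 28769 transcripts, so these counts describe the 81 and test nothing. The lowest p belonged to a 1629-base transcript at 4324 to 6841 CPM in the libraries numbered 4 and at 14.3 to 44.5 CPM in the others (edgeR adjusted p = 4.33e-06). An 888-base transcript followed, at 720 to 977 CPM against 14.3 to 40.7 CPM (adjusted p = 1.83e-05), and a 2188-base one, at 1029 to 1512 CPM against 5.56 to 16.6 CPM (adjusted p = 2.58e-05). Estimated counts were whole numbers in every oocyte library for 16 of the 81. The labels do not say whether a number marks an animal, a day or a batch, and these cannot be told apart here.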
